A study of Mus musculus with 12 samples.

Results

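The 10 genes described here, Axin2, Sp5, Lgr5, Notum, Nkd1, Nkd2, Dkk1, Znrf3, Rnf43 and Apcdd1, are targets of WNT signalling whose products act back on the pathway or mark its activity. They were listed by name as known WNT targets, out of 24736 genes in the table. No rule on their values was applied, but the list was chosen with earlier results of these data known. All 10 were among the 14196 genes with enough counts to be tested. RNA was sequenced from 12 mouse cultures after 72 h of differentiation from embryonic stem cells (ESCs), in 4 groups of 3 biological replicates. Every culture received FGF (10 ng/ml) and LGK974 (5 µM), an inhibitor of porcupine that blocks the secretion of WNT ligands. EpiLC (epiblast-like cells) and CEpiLC (caudal epiblast-like cells) were wild type (WT), from an XY ESC line that carries the doxycycline-responsive activator rtTA at the Rosa26 locus. CEpiLC differed from EpiLC by CHIR99021, an inhibitor of GSK3 that stabilizes β-catenin, given from day 2 to day 3 (5 mM by the labels, 5 µM by the methods). SOX2-OFF and SOX2-ON came from the SOX2 TetON line, labelled Sox2-/-, in which endogenous Sox2 was ablated in edited clones of the same parent and a Sox2 transgene at the Hprt locus depends on doxycycline. SOX2-OFF and SOX2-ON also received CHIR99021, SOX2-OFF without doxycycline and SOX2-ON with 1 µg/ml. How many clones were used was not stated, and no TetON culture without CHIR99021 was analysed here, so that line and CHIR99021 cannot be told apart between the TetON groups and EpiLC, nor line and SOX2 between the TetON groups and CEpiLC. SOX2-ON and SOX2-OFF share the line and differ in doxycycline and SOX2.

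WNT ligands bind Frizzled receptors and the co-receptors LRP5 and LRP6, which inactivates the destruction complex, lets β-catenin build up and switches on genes through TCF/LEF factors in the nucleus. Several of these genes encode inhibitors of the same pathway, so that a WNT response carries its own brake. In the epiblast the pathway drives formation of the primitive streak and the caudal identity of the cells that give rise to the trunk. CHIR99021 acts on GSK3, within the destruction complex, below the ligands and receptors.

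TCF/LEF factors bind DNA at a short CTTTG element, and windows of RefSeq promoters (assembly GRCm38.p6, the build mm10) were searched for it. The 250 bases before an annotated start site were available for 6 of the 10 genes in 7 windows. These were Axin2, Sp5, Nkd1, Nkd2, Dkk1 and 2 starts of Rnf43. The windows of Axin2 (chr11:108920099-108920348), Nkd1 (chr8:88527383-88527632) and the later start of Rnf43 lay inside the gene spans given below. The bases before the outermost starts of Axin2 and Nkd1 were therefore not searched. The letters CTTTGNN with each N an A or a T, on either strand, occurred in 14.8% of 32851 windows of the same length, and 1.43% held 2 or more. Only Sp5 and Dkk1 among the 6 genes held them, with 2 matches each. These were also the genes with 1 or 2 counts a library in EpiLC that rose in CEpiLC. Axin2, Nkd1 and Rnf43 rose in CEpiLC too, with no match in their windows, and Nkd2 was not called. The part of these letters in the rises was not tested. The SOX motif CATTGTT was in 3.29% of all windows and in none of the 7, and it shares no full match with the TCF/LEF letters. The windows of Sp5 (chr2:70474673-70474922, + strand) and Dkk1 (chr19:30549497-30549746, - strand) are shown for their matches, 5′ to 3′ on the strand of the gene, with the matches in capitals:
Sp5: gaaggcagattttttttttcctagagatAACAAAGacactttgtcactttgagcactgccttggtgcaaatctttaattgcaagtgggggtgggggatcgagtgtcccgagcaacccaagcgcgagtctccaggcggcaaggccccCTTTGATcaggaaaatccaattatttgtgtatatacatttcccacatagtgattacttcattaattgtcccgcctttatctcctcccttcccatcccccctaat
Dkk1: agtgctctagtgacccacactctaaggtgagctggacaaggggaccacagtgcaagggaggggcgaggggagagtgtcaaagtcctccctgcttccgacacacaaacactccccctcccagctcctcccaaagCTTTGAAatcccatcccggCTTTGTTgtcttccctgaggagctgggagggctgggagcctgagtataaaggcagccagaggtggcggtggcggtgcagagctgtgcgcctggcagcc
In Sp5 the matches lay 222 to 216 bases before the start, on the opposite strand, and 104 to 98 bases before it. In Dkk1 they lay 117 to 111 and 98 to 92 bases before the start. A match describes these letters and not a bound site, and the lack of a match describes only these 250 bases.

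The libraries held between 10408252 and 27337740 expected counts, the fewest in CEpiLC replicate 3. Sox2 was at 137 ± 29.7 TPM (a level scaled for library depth and gene length, given as mean ± SD, n = 3) in EpiLC, 10.4 ± 3.01 TPM in CEpiLC, 16.5 ± 4.48 TPM in SOX2-OFF and 187 ± 24.0 TPM in SOX2-ON, and these reads do not separate transgene from edited endogenous transcripts. The labelled identities were checked on summed TPM of fixed markers. Those of EpiLC (Fgf5, Otx2, Pou3f1, Pou5f1, Dnmt3b) reached 2360 to 2778 in EpiLC. Their sum was 822 to 1170 in CEpiLC, 908 to 1067 in SOX2-OFF and 1185 to 1423 in SOX2-ON. In these groups it was mostly Pou5f1, with means of 843, 851 and 1075 TPM, against 887 TPM in EpiLC. Those of the caudal epiblast (Cdx2, Cdx4, Nkx1-2, Hoxb9, Fgf8) reached 645 to 974 in CEpiLC, against 97.3 to 121 in SOX2-OFF and 101 to 118 in SOX2-ON. Primitive streak markers (T, Mixl1, Eomes, Wnt3) were at 512 to 1005 in CEpiLC, 973 to 1117 in SOX2-OFF, 150 to 189 in SOX2-ON and 2.97 to 4.16 in EpiLC. Of 12 visceral endoderm markers 10 were tested. Against CEpiLC, 9 of them were higher in SOX2-OFF and 9 in SOX2-ON, where 23.6% and 27.9% of all genes tested were higher. The 12 summed to 9.96 to 13.5 in EpiLC, 8.95 to 21.4 in CEpiLC and 305 to 356 in SOX2-OFF. SOX2-ON replicates 1, 2 and 3 had 128, 162 and 356, while Afp and Apoa1 stayed below 1 TPM in all libraries. The 8 feeder markers summed to 18.2 to 83.0 and the 5 neural markers to 4.2 to 20.01 in all groups but SOX2-ON, where the neural sum of 101 to 125 was mostly Sox21 at 93.6 to 116. In bulk RNA, fewer cells of a type and less RNA per cell cannot be told apart. Genes of 3 chromosomes were shifted as a whole in all 6 libraries of the TetON line against the 6 WT libraries, by a median log2 difference of 0.60 for 478 genes on chromosome 8, 0.56 for 383 genes on chromosome 6 and -0.55 for 683 genes on chromosome 11, against -0.05 to 0.05 on the other chromosomes. Axin2, Notum, Znrf3 and Rnf43 lie on chromosome 11 and Nkd1 on chromosome 8.

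CHIR99021 in WT cells went with higher levels of most of the 10 genes. Differences were tested with edgeR's quasi-likelihood test, and calls were made at a Benjamini-Hochberg adjusted p of 0.05 or less over all genes tested. In CEpiLC, 8 of the 10 were higher than in EpiLC and none was lower, where 22.1% of all genes tested were called higher and 20.1% lower. Their 3 values lay above all 3 of EpiLC for the same 8 genes, and groups that did not overlap were found for 52.3% of all genes tested. The median log2 fold change was 2.52 over the 10 and 0.01 over all genes tested. Their summed level went from 34.6, 34.6 and 40.1 TPM in EpiLC to 566, 352 and 425 TPM in CEpiLC. It was 354, 306 and 393 TPM in SOX2-OFF and 220, 200 and 236 TPM in SOX2-ON, the lowest of the groups with CHIR99021.

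**Figure D1:**
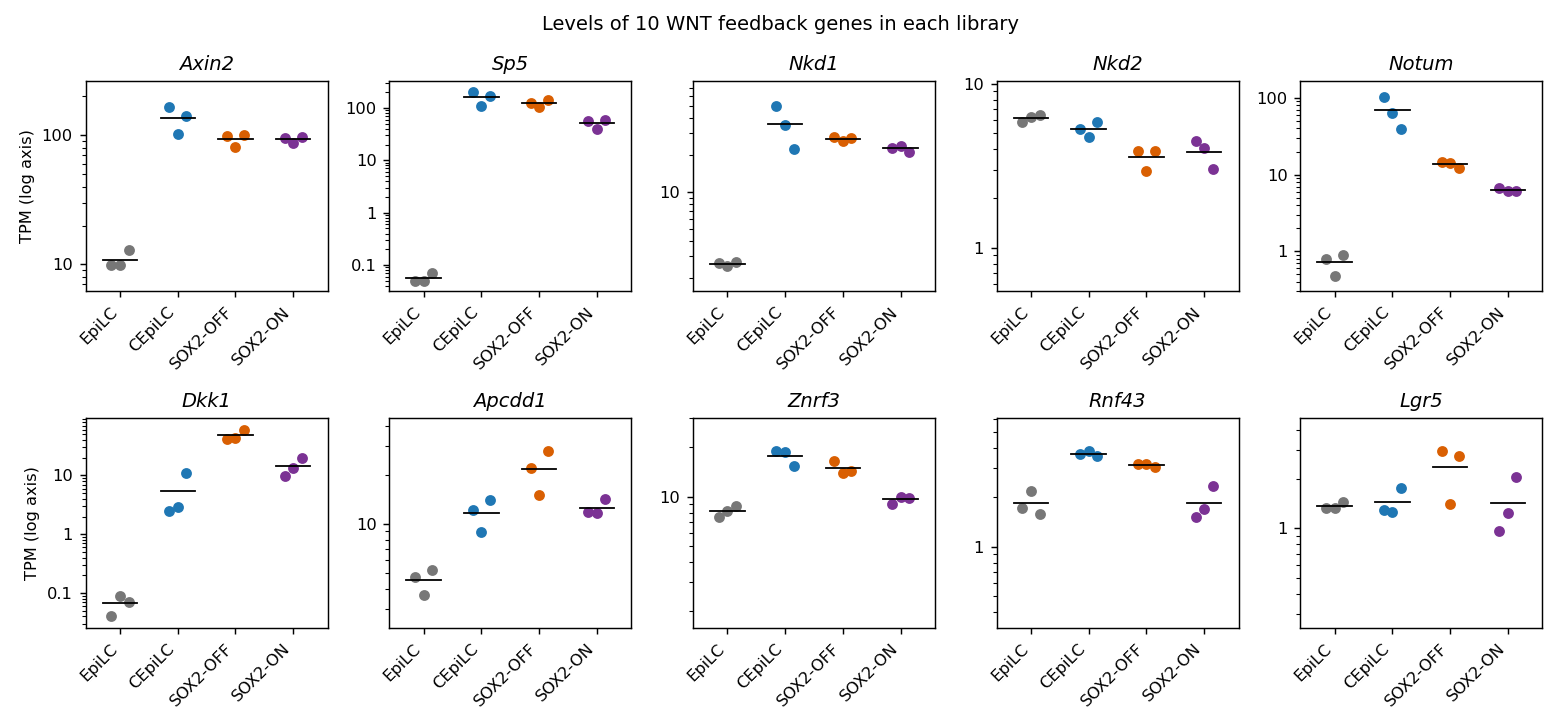
Level of each gene in TPM (vertical log axis, scaled for each gene) in the 12 libraries by group, with 1 point a library, replicates 1 to 3 from left to right, and a line at the group mean. Sp5 and Dkk1 were near 0.1 TPM or below in EpiLC, Notum fell from CEpiLC to SOX2-OFF to SOX2-ON, and Dkk1 and Apcdd1 were highest in SOX2-OFF.

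Axin2 (chromosome 11, 108917828 to 108950783) encodes the scaffold that assembles the destruction complex and is a general target of β-catenin. Its levels were 9.86, 9.86 and 12.8 TPM in EpiLC, 165, 103 and 141 TPM in CEpiLC, 99.3, 81.5 and 99.9 TPM in SOX2-OFF, and 96.1, 87.6 and 97.7 TPM in SOX2-ON. All 9 libraries with CHIR99021 were thus above all 3 without it, and the values of both TetON groups overlapped. Axin2 rose 12.7-fold from EpiLC to CEpiLC (log2 fold change 3.67, SE 0.17, adjusted p = 4.82e-09). It differed between SOX2-ON and SOX2-OFF by -0.05 on the log2 scale (95% interval -0.36 to 0.27, adjusted p = 0.847). Against CEpiLC it was lower in SOX2-OFF (-0.53, adjusted p = 0.00871) and in SOX2-ON (-0.58, adjusted p = 0.00432). Those decreases were of the size of the chromosome 11 shift, and with the shift taken out of the counts the differences were 0.02 (adjusted p = 0.910) and -0.02 (adjusted p = 0.912). Without CEpiLC replicate 1, the library with the highest Axin2, the decrease in SOX2-OFF was -0.35 (adjusted p = 0.0542).

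Sp5 (chromosome 2, 70474923 to 70477726), the Sp-family transcription factor whose window is printed above, had the largest rise of the 10. It had 1 count in each EpiLC library (0.05, 0.05 and 0.07 TPM) and was at 205, 111 and 171 TPM in CEpiLC, which is at least 959-fold higher against a floor of 3 counts a library (adjusted p = 1.84e-09). The values were 123, 104 and 141 TPM in SOX2-OFF and 56.9, 40.5 and 59.1 TPM in SOX2-ON. Every SOX2-ON library was below every library of SOX2-OFF and CEpiLC, whose values overlapped each other. Sp5 in SOX2-ON was at 41.2% of SOX2-OFF (log2 fold change -1.28, SE 0.20, adjusted p = 0.000404) and 31.3% of CEpiLC (-1.67, SE 0.20, adjusted p = 1.45e-05). SOX2-OFF against CEpiLC gave -0.40 (95% interval -0.82 to 0.03, adjusted p = 0.112). This last difference was -0.17 without CEpiLC replicate 1 (adjusted p = 0.501), and passed the threshold when CEpiLC replicate 2 was left out (-0.62, adjusted p = 0.00549) and with the replicate number as a block (-0.36, adjusted p = 0.0091).

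Nkd1 and Nkd2 encode the naked cuticle proteins, which bind Dishevelled in the cytoplasm and dampen the signal, and they moved apart. Nkd1 (chromosome 8, 88521342 to 88594887) was at 2.66, 2.5 and 2.71 TPM in EpiLC, 49.4, 34.6 and 22.4 TPM in CEpiLC, 27.6, 25.6 and 27.5 TPM in SOX2-OFF, and 22.8, 23.6 and 21.2 TPM in SOX2-ON. Nkd2 (chromosome 13, 73818534 to 73847631) was at 5.83, 6.29 and 6.50 TPM in EpiLC, 5.29, 4.73 and 5.88 TPM in CEpiLC, 3.89, 2.96 and 3.89 TPM in SOX2-OFF, and 4.49, 4.07 and 3.01 TPM in SOX2-ON. Nkd2 was thus the more abundant of the pair in EpiLC and Nkd1 in every library with CHIR99021. The TPM ratio of Nkd1 to Nkd2 was 0.456, 0.397 and 0.417 in EpiLC and 9.33, 7.31 and 3.80 in CEpiLC, and it stayed between 5.08 and 8.66 in the TetON libraries. Nkd1 rose 13.7-fold from EpiLC to CEpiLC (log2 fold change 3.78, SE 0.23, adjusted p = 6.94e-08), while Nkd2 gave -0.22 (95% interval -0.57 to 0.12, adjusted p = 0.282).

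Nkd1 was lower in SOX2-ON than in CEpiLC (-0.70, SE 0.19, adjusted p = 0.00645), with values that overlapped, and gave -0.40 (adjusted p = 0.0995) in SOX2-OFF against CEpiLC. The chromosome 8 shift runs the other way, and with it taken out both differences were called, at -1.30 (adjusted p = 0.000107) and -0.99 (adjusted p = 0.00109). The difference of SOX2-OFF from CEpiLC was -0.06 without CEpiLC replicate 1 (adjusted p = 0.739) and -0.63 without replicate 3, where it was called (adjusted p = 0.00091). That of SOX2-ON kept its call under all 21 alternatives, at -0.37 without CEpiLC replicate 1 (adjusted p = 0.0344). Between SOX2-ON and SOX2-OFF, where the shift cancels, Nkd1 differed by -0.31 (95% interval -0.72 to 0.11, adjusted p = 0.256), although the 3 SOX2-ON values were all below the 3 of SOX2-OFF. A fit of these 6 libraries alone called it (-0.30, adjusted p = 0.013). Nkd2 was lower than in CEpiLC in SOX2-OFF (-0.56, SE 0.17, adjusted p = 0.0141) and in SOX2-ON (-0.49, SE 0.16, adjusted p = 0.0219). The first call was lost without SOX2-OFF replicate 2 (adjusted p = 0.0792), and the second without CEpiLC replicate 1 or 3 or SOX2-ON replicate 3 (adjusted p of 0.0548, 0.0673 and 0.1) and in a fit of the 6 libraries alone (adjusted p = 0.0532).

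Notum and Dkk1 encode secreted antagonists, and the order of their levels was opposite in CEpiLC and the TetON groups. Notum (chromosome 11, 120653788 to 120661193) is a carboxylesterase that strips the lipid from WNT ligands. It was at 0.79, 0.48 and 0.91 TPM in EpiLC, 104, 63.9 and 39.0 TPM in CEpiLC, 14.6, 14.2 and 12.3 TPM in SOX2-OFF, and 6.67, 6.04 and 6.15 TPM in SOX2-ON. The 4 groups did not overlap. Dkk1 (chromosome 19, 30545876 to 30549496) is a ligand of LRP5 and LRP6 that blocks their use by WNT. It had 1, 2 and 1 counts in EpiLC (0.04, 0.09 and 0.07 TPM) and was at 2.45, 2.87 and 10.9 TPM in CEpiLC, 41.5, 44.3 and 60.3 TPM in SOX2-OFF, and 9.95, 13.3 and 20.3 TPM in SOX2-ON. The TPM ratio of Notum to Dkk1 was 42.4, 22.2 and 3.57 in the CEpiLC libraries. It was 0.353, 0.322 and 0.204 in those of SOX2-OFF and 0.670, 0.455 and 0.304 in those of SOX2-ON. Notum was thus the higher of the pair in every CEpiLC library and Dkk1 in every TetON library.

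Notum rose 97.6-fold from EpiLC to CEpiLC (log2 fold change 6.61, SE 0.38, adjusted p = 3.71e-08). It was at 20.04% of its CEpiLC level in SOX2-OFF (-2.32, SE 0.26, adjusted p = 1.13e-05) and at 8.84% in SOX2-ON (-3.50, SE 0.28, adjusted p = 4.54e-07). The chromosome 11 shift covers part of these decreases, which were -1.76 (adjusted p = 0.000164) and -2.95 (adjusted p = 2.92e-06) without it. Within the TetON line, SOX2-ON was at 44.1% of SOX2-OFF (-1.18, SE 0.29, adjusted p = 0.00799), a difference that limma-voom did not call (adjusted p = 0.0746). Caudal epiblast markers, whose summed TPM is given above, were also lower in both TetON groups than in CEpiLC. In each group 5 of 5 were called lower, against 24.9% (SOX2-OFF) and 28.6% (SOX2-ON) of all genes tested. Between SOX2-ON and SOX2-OFF these markers split, with 3 higher and 2 lower (14.8% and 14.1% of all genes tested). The means of Nkx1-2 and Fgf8 were lower in SOX2-ON, at 25.6 and 3.94 TPM against 43.1 and 26.3 TPM in SOX2-OFF. Those of Cdx2, Cdx4 and Hoxb9 were higher in SOX2-ON. The part of the caudal epiblast markers in the Notum values was not tested.

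Dkk1 in CEpiLC was at least 34.6-fold higher than in EpiLC (adjusted p = 0.000321), or at least 16.8-fold without CEpiLC replicate 3. It was a further 10.2-fold higher in SOX2-OFF than in CEpiLC (log2 fold change 3.35, SE 0.43, adjusted p = 3.47e-05), with no overlap of values. SOX2-ON was at 28.6% of SOX2-OFF (-1.81, SE 0.39, adjusted p = 0.00342) and 2.92-fold higher than CEpiLC (1.54, SE 0.44, adjusted p = 0.00874). CEpiLC replicate 3, with 10.9 TPM, stood above the other CEpiLC libraries and inside the range of SOX2-ON. Without it SOX2-OFF against CEpiLC was 4.22 (adjusted p = 4.69e-07) and SOX2-ON against CEpiLC 2.42 (adjusted p = 1.68e-05). The summed visceral endoderm markers were highest in the TetON libraries and, within SOX2-ON, in replicate 3, as Dkk1 was. Within SOX2-OFF and CEpiLC the sum was highest in replicate 2 (356 and 21.4), while Dkk1 was highest in replicate 3. Without SOX2-ON replicate 3, SOX2-ON against SOX2-OFF was -2.11 (adjusted p = 0.00289). The summed streak markers were highest in replicate 3 of CEpiLC, SOX2-OFF and SOX2-ON (1005, 1117 and 189), as Dkk1 was. Between groups, SOX2-ON had a lower streak sum than CEpiLC (150 to 189 against 512 to 1005), while its Dkk1 was higher. The part of the visceral endoderm and streak markers in the Dkk1 values was not tested.

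Apcdd1 (chromosome 18, 62922327 to 62953815), a membrane-bound inhibitor that binds WNT ligands and LRP5, shared the order of groups with Dkk1 over a narrower range. It was at 4.73, 3.66 and 5.21 TPM in EpiLC, 12.2, 8.98 and 14.0 TPM in CEpiLC, 22.1, 14.99 and 28.1 TPM in SOX2-OFF, and 11.8, 11.6 and 14.2 TPM in SOX2-ON. The SOX2-OFF libraries were above all others. Apcdd1 rose 2.59-fold from EpiLC to CEpiLC (log2 fold change 1.37, SE 0.24, adjusted p = 0.000465) and was 1.88-fold higher again in SOX2-OFF (0.91, SE 0.22, adjusted p = 0.00352). SOX2-ON was at 55.9% of SOX2-OFF (-0.84, SE 0.21, adjusted p = 0.0101) and differed from CEpiLC by 0.07 (95% interval -0.40 to 0.54, adjusted p = 0.809).

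Znrf3 and Rnf43 encode the transmembrane ubiquitin ligases that remove Frizzled receptors from the cell surface. Znrf3 (chromosome 11, 5276329 to 5444847) was at 7.57, 8.17 and 8.80 TPM in EpiLC, 18.9, 18.7 and 15.5 TPM in CEpiLC, 16.5, 13.9 and 14.3 TPM in SOX2-OFF, and 9.08, 10.0 and 9.80 TPM in SOX2-ON. Rnf43 (chromosome 11, 87663087 to 87735539) was at 1.73, 2.19 and 1.58 TPM in EpiLC, 3.69, 3.82 and 3.57 TPM in CEpiLC, 3.18, 3.21 and 3.05 TPM in SOX2-OFF, and 1.51, 1.70 and 2.34 TPM in SOX2-ON. Both were high in CEpiLC and SOX2-OFF and low in EpiLC and SOX2-ON. Unlike the ratio of the Nkd pair, the TPM ratio of Znrf3 to Rnf43 lay between 3.73 and 6.01 in all 12 libraries. From EpiLC to CEpiLC Znrf3 rose 2.19-fold (log2 fold change 1.13, SE 0.09, adjusted p = 5.22e-07) and Rnf43 2.01-fold (1.01, SE 0.17, adjusted p = 0.000367). In SOX2-ON they were at 61.7% (Znrf3, -0.70, SE 0.09, adjusted p = 6.37e-05) and 56.6% (Rnf43, -0.82, SE 0.17, adjusted p = 0.00285) of SOX2-OFF. As counted, SOX2-ON with CHIR99021 differed from EpiLC without it by 0.19 for Znrf3 (95% interval 0.0046 to 0.38, adjusted p = 0.0722, or 0.0427 without CEpiLC replicate 3) and -0.03 for Rnf43 (95% interval -0.41 to 0.35, adjusted p = 0.894).

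The comparison of these ligases across the lines depended on the chromosome 11 shift. With it taken out, Znrf3 and Rnf43 in SOX2-ON were above EpiLC by 0.75 (adjusted p = 1.29e-05) and 0.52 (adjusted p = 0.0216), and below CEpiLC by -0.38 (adjusted p = 0.00233) and -0.48 (adjusted p = 0.028), where the counts as deposited gave -0.94 (SE 0.09, adjusted p = 1.32e-06) and -1.04 (SE 0.17, adjusted p = 0.000163). In SOX2-OFF against CEpiLC, Znrf3 turned from lower (-0.24, adjusted p = 0.0297) to higher (0.31, adjusted p = 0.01) and Rnf43 from -0.22 (adjusted p = 0.289) to 0.34 (adjusted p = 0.116). The decrease of Znrf3 as counted was also lost without CEpiLC replicate 1 or 2 or SOX2-OFF replicate 2 or 3 (adjusted p from 0.0808 to 0.149) and in a fit of the 6 libraries alone (adjusted p = 0.0584). The comparison of SOX2-ON with SOX2-OFF, within the line, was the same with and without the shift.

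**Figure D2:**
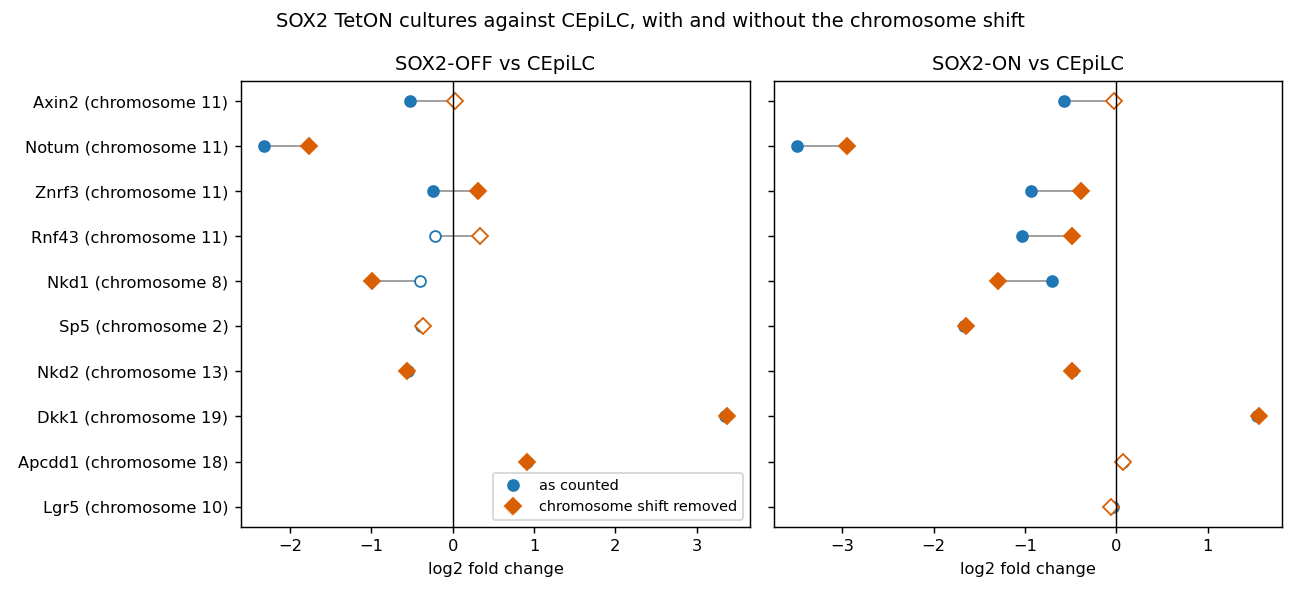
Log2 fold change (horizontal axis) of each gene in the 2 TetON groups against CEpiLC, as counted (circles) and with the median shift of its chromosome in the TetON line removed (diamonds), filled where the adjusted p was at most 0.05. Axin2 moved to 0.02 and -0.02, Znrf3 in SOX2-OFF crossed 0, Nkd1 moved further down, and the genes on chromosomes without a shift stayed in place.

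Lgr5 (chromosome 10, 115450314 to 115587780) encodes a receptor for R-spondins, which protect Frizzled from Znrf3 and Rnf43, and marks WNT-responsive stem cells in several tissues. It was low everywhere, at 1.32, 1.32 and 1.44 TPM in EpiLC, 1.3, 1.25 and 1.76 TPM in CEpiLC, 2.95, 1.40 and 2.74 TPM in SOX2-OFF, and 0.96, 1.24 and 2.06 TPM in SOX2-ON, or 43 to 120 counts a library. CEpiLC differed from EpiLC by 0.06 on the log2 scale (95% interval -0.60 to 0.73, adjusted p = 0.894), so that an increase of the size seen for Axin2 or Nkd1 lies outside the interval. Lgr5 in SOX2-OFF gave 0.74 against CEpiLC (adjusted p = 0.0555), which was called without CEpiLC replicate 3, SOX2-OFF replicate 2 or SOX2-ON replicate 1 or 3 (adjusted p from 0.00834 to 0.0465), by DESeq2 (adjusted p = 0.0479), with no filter (adjusted p = 0.048) and with the replicate block (adjusted p = 0.0279). It was called against EpiLC (0.81, SE 0.30, adjusted p = 0.0316). That call was lost without any of the EpiLC libraries or without SOX2-OFF replicate 1 or 3 (adjusted p from 0.0585 to 0.136) and by limma-voom (adjusted p = 0.062). SOX2-ON against SOX2-OFF gave -0.78 (adjusted p = 0.0668), which was called without SOX2-OFF replicate 2 (-1.06, adjusted p = 0.0142), without SOX2-ON replicate 3 (-1.14, adjusted p = 0.0134) and with the replicate block (-0.80, adjusted p = 0.0284).

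Within the TetON line, 6 of the 10 genes were lower in SOX2-ON than in SOX2-OFF and none was higher, where 14.1% of all genes tested were called lower and 14.8% higher. The 6 were Sp5, Notum, Dkk1, Znrf3, Rnf43 and Apcdd1, at 28.6 to 61.7% of their SOX2-OFF level. The median log2 fold change was -0.80 over the 10 and -0.01 over all genes tested, and 7 of the 10 had groups that did not overlap, against 43.8% of all genes tested. Axin2 and Nkd2 were the members closest to no difference. Axin2 was 41.4 to 43.9% of the summed TPM of the 10 genes in SOX2-ON and 25.4 to 33.2% in the other 9 libraries.

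Against CEpiLC the same genes split. In SOX2-OFF, 2 were higher (Dkk1 and Apcdd1) and 4 lower (Axin2, Notum, Nkd2 and Znrf3). Of all genes tested, 23.6% and 24.9% were called higher and lower, so that the share higher was near that of all genes. In SOX2-ON, 1 was higher (Dkk1) and 7 lower, all but Lgr5 and Apcdd1, where the shares over all genes were 27.9% and 28.6%. Of the genes called lower, 3 of 4 in SOX2-OFF and 4 of 7 in SOX2-ON lie on chromosome 11, whose genes were lower as a whole in the TetON line. Against EpiLC, SOX2-OFF had 9 genes higher (background 31.5%) and SOX2-ON 6 (background 30.7%), with Nkd2 lower in each (-0.78, adjusted p = 0.00111, and -0.71, adjusted p = 0.002, with 30.6% and 29.1% of all genes lower). The 6 genes higher in SOX2-ON were Axin2 (log2 fold change 3.09), Notum (3.11), Nkd1 (3.07), Apcdd1 (1.44), Sp5 (at least 301-fold) and Dkk1 (at least 89.2-fold). Against CEpiLC, the groups did not overlap for 5 of the 10 genes in SOX2-OFF and 6 in SOX2-ON. Those shares were near the 55.3% and 59.9% of all genes tested. The counts against EpiLC were 10 and 8, with 69.2% and 66.1% of all genes tested. The comparisons that share CEpiLC or EpiLC share its libraries and are not independent.

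**Figure D3:**
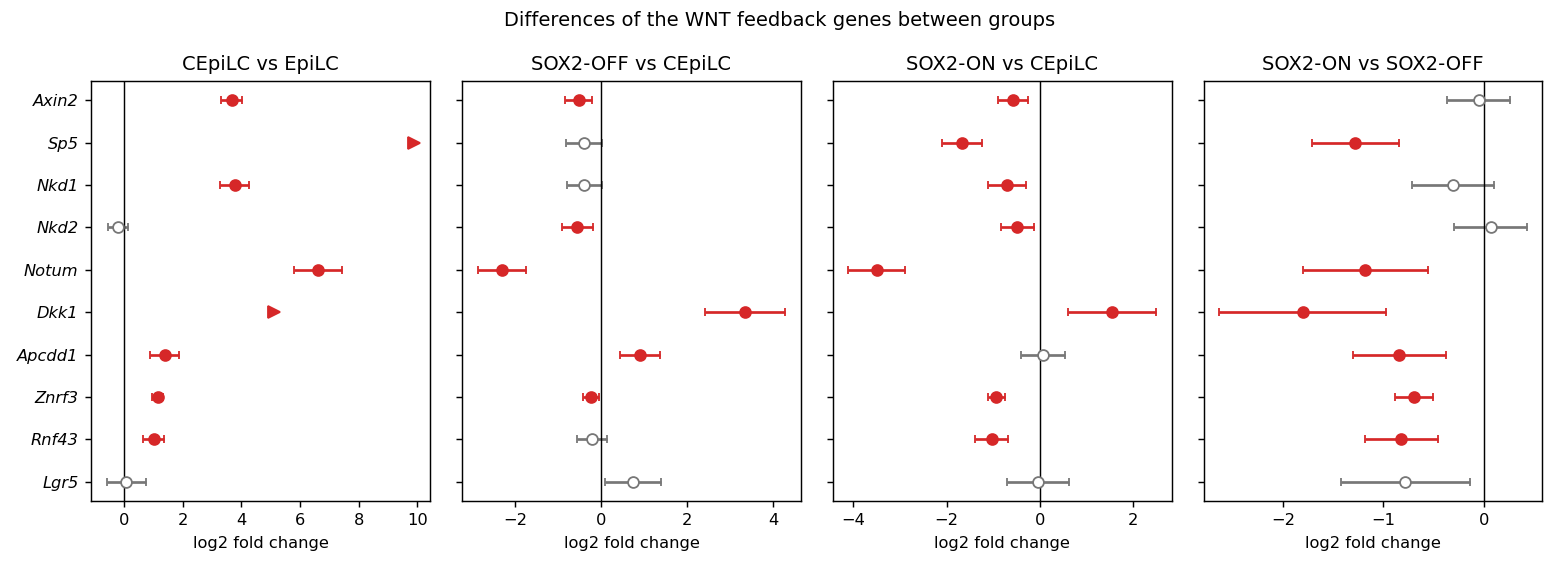
Log2 fold change of each gene (horizontal axis, a scale for each panel) in 4 comparisons, with 95% intervals, red and filled where the adjusted p was at most 0.05. Triangles for Sp5 and Dkk1 in CEpiLC against EpiLC mark lower bounds of 959-fold and 34.6-fold, and in SOX2-ON against SOX2-OFF all 6 genes called lie below 0.

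The other genes of the pathway were taken from a list of 87, of which 79 were tested. In CEpiLC against EpiLC 34 were higher and 17 lower, against 22.1% and 20.1% of all genes tested, so that the share lower was near that of all genes. Of 16 ligands 11 were higher and 2 lower (Wnt7b and Wnt4), with a median log2 fold change of 3.43. Wnt3a went from 0.17 ± 0.08 TPM to 58.6 ± 15.1 TPM (log2 fold change 8.45, SE 0.32, adjusted p = 1.03e-09) and Wnt6 from at most 2 counts a library to 41.2 ± 10.2 TPM, at least 239-fold. These ligand transcripts were counted in cultures with LGK974. Both genes of ligand secretion rose too, Porcn by 3.42 and Wls by 1.1 on the log2 scale. Among receptors Fzd10 rose (from 0.983 ± 0.277 to 143 ± 24.2 TPM, adjusted p = 3.34e-11), and Fzd5 and Fzd8 fell by 2.69 and 2.41 on the log2 scale. Rspo3, a ligand of the Lgr receptors, rose by 6.65 and its receptor Lgr4 fell by 0.65.

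Among the nuclear effectors, Lef1 and Tcf7l1 ran in opposite directions. Lef1, an activator in most WNT responses, was at 31.8 ± 5.37 TPM in EpiLC, 106 ± 19.9 TPM in CEpiLC, 77.8 ± 9.27 TPM in SOX2-OFF and 38.9 ± 2.41 TPM in SOX2-ON. Tcf7l1, the main repressor of the family in pluripotent cells, was at 80.3 ± 4.79, 18.2 ± 3.14, 31.2 ± 1.31 and 51.9 ± 4.26 TPM in the same order. The order of the groups was reversed between these 2 genes for the groups with CHIR99021. Within the TetON line Lef1 was lower in SOX2-ON by -1.06 (SE 0.15, adjusted p = 0.000144) and Tcf7l1 higher by 0.69 (adjusted p = 0.000393). Tcf7l1 lies on chromosome 6, where the shift raises the TetON values against CEpiLC but not against each other.

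In SOX2-ON against SOX2-OFF, 13 of the 79 pathway genes were higher and 25 lower, against 14.8% and 14.1% of all genes tested, with a median log2 fold change of -0.07. The share higher was near that of all genes. Of the 16 ligands, 10 were lower and 1 higher, Wnt7a (2.08, adjusted p = 0.025). Wnt10a fell from 3.17 ± 0.263 TPM to at most 3 counts a library, at least 18.3-fold lower. Of 8 other target genes 4 were lower, with T at 809 ± 19.3 TPM in SOX2-OFF and 152 ± 17.9 TPM in SOX2-ON (-2.47, adjusted p = 7.42e-07) and Cdx1 at 49.2 ± 3.37 and 15.2 ± 3.00 TPM (-1.74, adjusted p = 0.000208). The streak markers, of which T is one, were lower in SOX2-ON in 4 of 4. Of 12 receptors 5 were higher, among them Fzd9 (1.22) and Fzd1 (1.09), and 3 lower, among them Fzd10 (-0.53) and Fzd6 (-0.41). Among secreted antagonists of the Sfrp family Sfrp1 (1.21, adjusted p = 0.00084) and Sfrp2 (0.91, adjusted p = 0.00235) were higher, and their relative Frzb was lower (-3.17, adjusted p = 0.000731). Dkk4, a relative of Dkk1 on chromosome 8, had 0 counts in all EpiLC libraries and was at 1.91 ± 1.19, 9.34 ± 6.46 and 9.08 ± 3.04 TPM in CEpiLC, SOX2-OFF and SOX2-ON.

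Between SOX2-ON and CEpiLC, 40 of the 79 pathway genes were lower and 13 higher, against 28.6% and 27.9% of all genes tested. Of 8 other targets 7 were lower and of 16 ligands 10 were, including Wnt3a (-6.05, SE 0.25, adjusted p = 4.09e-09). Wnt3a lies on chromosome 11, with its shift of -0.55. The counts of pathway genes in the TetON groups against CEpiLC and EpiLC carry the shifts of chromosomes 6, 8 and 11. Pathway genes were not refitted with these shifts removed. SOX2-OFF against CEpiLC had 17 higher and 30 lower, against 23.6% and 24.9% of all genes, with 6 ligands higher, such as Wnt7b (3.13) and Wnt11 (1.86), and 3 lower, among them Wnt8a (-3.34) and Wnt3a (-2.43). In SOX2-OFF against EpiLC 37 were higher and 24 lower, against 31.5% and 30.6% of all genes. In SOX2-ON against EpiLC 28 were higher and 24 lower, against 30.7% and 29.1%, and the shares lower in both comparisons were near those of all genes.

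**Figure D4:**
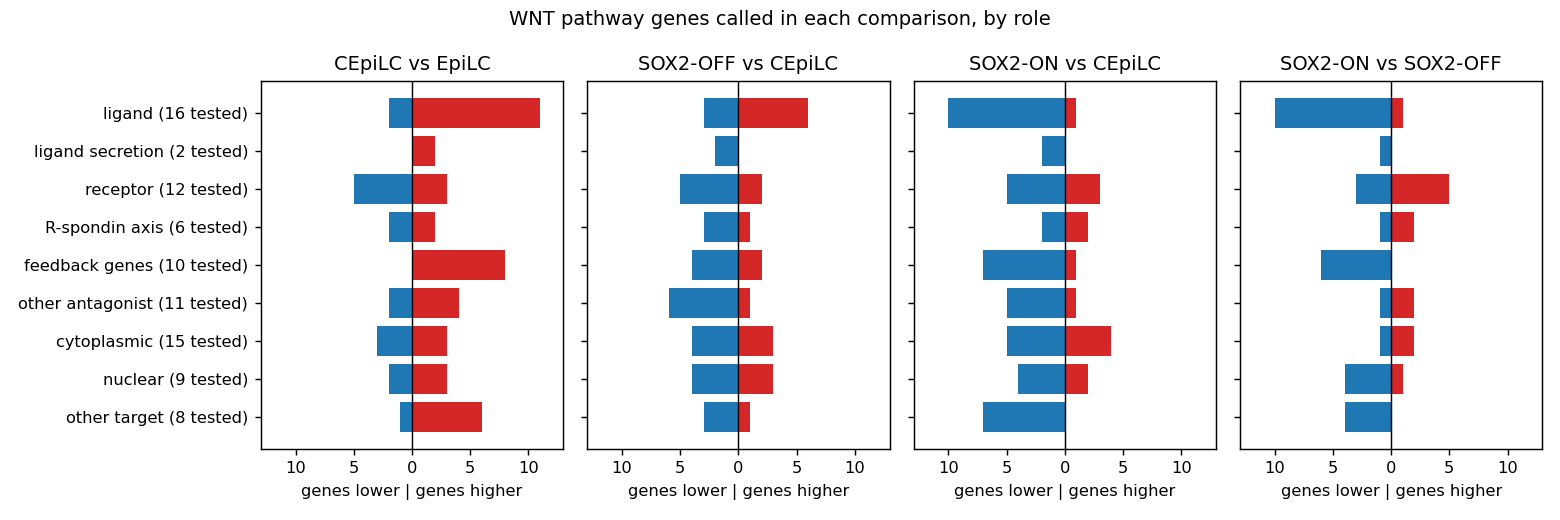
Number of pathway genes called higher (red, right) or lower (blue, left) in 4 comparisons by role, with the number tested beside each role. Ligands go from 11 higher in CEpiLC against EpiLC to 10 lower in SOX2-ON against SOX2-OFF, the same comparison in which 6 feedback genes are lower and none higher.

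Across the 12 libraries the 10 genes followed a few courses, given as Pearson's r of log2 CPM with no test, since libraries of a group share its level and libraries of a line its shift. Axin2, Sp5 and Nkd1 ran together (r of 0.991, 0.982 and 0.986 for the 3 pairs). Dkk1 and Apcdd1 paired at 0.946 and Znrf3 and Rnf43 at 0.917. Notum was about as near to Znrf3 (0.916) as to Nkd1 (0.915), Axin2 (0.904) and Sp5 (0.899). It was further from Rnf43 (0.7865) and Dkk1 (0.604). Nkd2 was negative against each of the other 9, from -0.799 (Dkk1) to -0.171 (Rnf43), and Lgr5 reached at most 0.627, with Apcdd1. Among 10863 genes of at least 2 log2 CPM, those nearest to Sp5 were Cdx1 (0.997), T (0.991) and Evx1 (0.989), those nearest to Axin2 were Mcc (0.990), Cdx2 (0.986) and Cdx1 (0.982), and Mcc was also nearest to Nkd1 (0.994). Notum was nearest to Oat (0.993), Nkx1-2 (0.989) and Ddit4 (0.983), and Dkk1 to Exoc6b (0.990), Adam9 (0.990) and B4galt6 (0.989). The highest r was 0.963 for Rnf43 (Alg5), 0.971 for Apcdd1 (Zfp703), 0.945 for Nkd2 (Eral1) and 0.856 for Lgr5 (Dclk1).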

How the data were processed

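Polyadenylated RNA was sequenced as strand-specific, single-end reads. The authors trimmed reads with cutadapt (1.16), aligned them with STAR (2.5.2a) to mm10 and quantified RefSeq genes with RSEM (1.3.0), counting by strand. The deposited table holds for each gene and library an expected count, a fraction being possible where a read matches more than 1 gene, and a TPM value as RSEM scaled it. Of the 10 genes, Sp5 alone had a count that was not whole, in 1 library. The authors tested with DESeq2 (1.16.1).

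Expected counts were rounded and TPM was used for levels only. Groups were compared in R 4.3.3 by the quasi-likelihood F test of edgeR 4.0.16 (with limma 3.58.1), using TMM scaling and filterByExpr, a mean for each of the 4 groups over 12 libraries, no covariates, and Benjamini-Hochberg adjustment over 14196 genes. Standard errors were derived from the F statistic. Reads carry no molecular identifiers, so that floors (3 counts a library) cover counting error only. For the chromosome shift, the median difference of each chromosome between the lines, over genes of at least 4 log2 CPM, was entered as an offset. Gene positions are those of RefSeq in GRCm38.p6. The fit was tested on simulated data.

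The members, the lists of pathway and marker genes and the comparisons were chosen with earlier results of these data known. In the pathway list, at most 2 genes in each role, direction and comparison were named, those with the largest change among those called, with values for them in other groups. Also named were Sox2, the markers, and for each member the 3 genes with the highest r.

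Replicates carry numbers 1 to 3. Over genes, the residuals of EpiLC and CEpiLC libraries with the same number had correlations of 0.120, 0.132 and 0.103, each over 0.1, which was the criterion for pairing. The block entered no main fit and was run as an alternative. The other 5 comparisons each had at least 1 correlation below 0.1 and did not meet it. Against CEpiLC, replicates 2 and 3 still had 0.179 and 0.173 for SOX2-OFF and 0.201 and 0.163 for SOX2-ON. Replicate 1 had 0.053 and 0.064. Alternatives were RLE scaling, library size alone, 2 other count filters, DESeq2 (1.42.0), limma-voom, only the 6 libraries compared, a replicate block, the chromosome offset, a threshold of 0.01 and each library left out in turn. A result that the rule for named genes would give is not reported here.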

Additional observations from a re-analysis of the deposited data

How the results depend on the processing

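Of 60 results (10 genes in 6 comparisons), 39 kept their direction and their call under all 21 alternatives. The threshold of 0.01 is not among these 21 and was applied only to the counts of members called. No count of members called moved by more than 1.5 times. Over the alternatives it stayed at 8 for CEpiLC against EpiLC and ran from 4 to 8 for SOX2-OFF and from 7 to 8 for SOX2-ON against CEpiLC, from 9 to 10 and from 7 to 9 against EpiLC, and from 5 to 7 for SOX2-ON against SOX2-OFF. Removing the chromosome shift turned Axin2 (0.024), Znrf3 (0.31) and Rnf43 (0.34) in SOX2-OFF against CEpiLC and Rnf43 in SOX2-ON against EpiLC (0.52), by its own construction. The other reversals were of values with no call. For Lgr5 in SOX2-ON against EpiLC, limma-voom gave -0.044 and the replicate block -0.020. Leaving out 1 library gave a log2 range of -0.32 to 0.24 for it, -0.38 to 0.17 for Lgr5 in SOX2-ON against CEpiLC, -0.0875 to 0.157 in CEpiLC against EpiLC, -0.10 to 0.20 for Apcdd1 in SOX2-ON against CEpiLC, -0.22 to 0.12 for Rnf43 in SOX2-ON against EpiLC, and in SOX2-ON against SOX2-OFF -0.138 to 0.0135 for Axin2 and -0.0744 to 0.224 for Nkd2. For these the cause was not tested. With the replicate block, Sp5 (-0.36) and Lgr5 (0.72, adjusted p = 0.0279) in SOX2-OFF against CEpiLC and Lgr5 in SOX2-ON against SOX2-OFF (-0.80) gained a call. The block changed no other call of the members. Lgr5 had 43 to 120 counts a library, and the parts of this depth and of the spread between replicates in the width of its intervals were not tested. Genes that are not members were fitted under the main settings only.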
